A study of Mus musculus with 6 samples.

Results

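The genes described here encode the proteins of the mitochondrial ribosome, taken as every gene of the deposited table whose symbol is Mrpl or Mrps followed by a number. The rule found 78 of 16135 genes, 49 named for the large subunit (Mrpl) and 29 named for the small subunit (Mrps). Their levels were compared between livers of ethanol-fed mice whose Acss2 gene carries loxP sites (ACSS2-flox, called the controls, 3 libraries) and livers of mice with a hepatocyte-specific loss of the gene (ACSS2-HKO, 3 libraries). ACSS2 makes acetyl-CoA from acetate in the cytosol and nucleus. Mice of both genotypes had received ethanol in a Lieber-Decarli liquid diet for 10 days and then a single ethanol binge, and no group without ethanol was analysed here. Only hepatocytes are targeted in ACSS2-HKO, so the other cells of the liver keep the gene. The sources used here do not give age, sex, strain or the Cre driver. Whether the libraries of a genotype are separate animals is not labelled, so p-values here reflect only how these samples spread, which may be technical.

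The mitochondrial ribosome translates the few messenger RNAs that mitochondrial DNA encodes, all of them for subunits of the respiratory chain and ATP synthase. Its RNAs come from mitochondrial DNA, whereas all of its proteins are encoded in the nucleus, made in the cytosol and imported. The small subunit holds the decoding centre, where codons are read, and the large subunit holds the centre that joins amino acids. Hepatocytes are rich in mitochondria, which carry out fatty acid oxidation, part of the urea cycle and the oxidation of acetaldehyde made from ethanol.

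The promoters of these genes have known links to nuclear factors that act on mitochondrial genes, among them NRF1, the ETS family factor GABP and YY1. RefSeq windows (GRCm38.p6) from 250 bases before to 50 bases after a gene's start were found for 69 of the 78 genes, 75 windows in all. The NRF1 consensus, CCGGAAG for ETS factors and AAGATGG for YY1 were searched on both strands. The NRF1 motif stood in 17.3% of the members' windows, against 4.603% of all 32851 windows and 10.4% of the windows of genes tested here. CCGGAAG stood in 34.7% of the members' windows, against 8.86% of all windows and 18.45% of those of tested genes. AAGATGG stood in 17.3%, against 6.34% and 7.56%. At least 1 of these motifs stood in 57.3% of the members' windows, against 17.95% of all windows and 32.0% of those of tested genes. GGGCGG, the core of SP factor sites, stood in 52% of the members' windows and in 62.5% of those of tested genes. A match of letters is a description and does not show that a factor binds.

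Bases upstream of the start that lie outside any RefSeq gene are printed here 5′ to 3′ on the strand of the gene, for members on which the results below turn, with motif matches in capitals. Mrpl12 and Mrpl52 had the highest levels of all members, Mrpl3 had among the lowest, Mrps12 had the smallest p in the comparison of genotypes, and Mrps11 shares its promoter with Mrpl46. The capitals mark the reverse complement of the NRF1 consensus in Mrpl12 (chr11:120484437-120484636, plus strand), AAGATGG and the reverse complement of CCGGAAG in Mrpl52 (chr14:54426709-54426908, plus strand), and CCGGAAG in Mrpl3 (chr9:105053068-105053267, plus strand). The stretches for Mrps11 (chr7:78783090-78783130, plus strand) and Mrps12 (chr7:28741822-28741956, minus strand) are bounded by a neighbouring gene, and these short stretches hold none of the 3 motifs. The full windows hold matches outside the printed bases, ETS and YY1 for Mrps12 and YY1 for Mrps11.
Mrpl12: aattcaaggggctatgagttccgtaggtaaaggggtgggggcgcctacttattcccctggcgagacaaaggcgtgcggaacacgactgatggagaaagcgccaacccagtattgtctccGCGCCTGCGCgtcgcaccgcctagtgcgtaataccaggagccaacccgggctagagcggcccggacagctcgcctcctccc
Mrpl52: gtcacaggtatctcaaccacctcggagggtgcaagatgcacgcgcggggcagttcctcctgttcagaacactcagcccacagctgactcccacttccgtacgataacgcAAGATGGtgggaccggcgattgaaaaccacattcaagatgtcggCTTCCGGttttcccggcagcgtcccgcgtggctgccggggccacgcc
Mrpl3: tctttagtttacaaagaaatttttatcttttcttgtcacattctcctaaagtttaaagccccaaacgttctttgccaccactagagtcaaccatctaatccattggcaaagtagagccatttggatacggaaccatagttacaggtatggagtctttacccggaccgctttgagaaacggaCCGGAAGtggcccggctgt
Mrps11: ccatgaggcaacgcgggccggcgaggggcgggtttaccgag
Mrps12: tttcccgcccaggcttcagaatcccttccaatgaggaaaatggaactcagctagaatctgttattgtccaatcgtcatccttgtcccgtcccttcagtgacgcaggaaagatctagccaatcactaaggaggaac

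Values are FPKM, that is fragments per length of gene and per total of the library, so each is a share of a library. The values implied totals of 33717125 to 39474527 fragments per library, and for every one of the 78 members they gave fragment counts within 0.01 of a whole number. A member had between 228 and 5551 fragments in a library, with a median of 1018.5. The counting error alone was therefore 6.62% of the value at the fewest fragments and 1.34% at the most, and covers sampling of fragments only. On the first principal component, which held 47.2% of the variance of all tested genes, scores were -47.7 for ACSS2-flox replicate 1, 27.6 for ACSS2-HKO replicate 3 and 2.51 to 8.49 for the remaining 4, so the first pair is called the distant libraries. The results on members that turn on these libraries are given with and without them. Acss2 had 87.8, 61.5 and 58.5 FPKM in ACSS2-flox replicates 1 to 3 and 50.6, 38.4 and 45.7 in ACSS2-HKO replicates 1 to 3. Every ACSS2-HKO library lay below every ACSS2-flox library, and its change of -0.60 on the log2 scale did not pass adjustment (limma, adjusted p = 0.637; -0.43 and 0.547 without the distant libraries).

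All 78 members were measured well above the filter of a mean of 1 FPKM, and 74 had a mean of at least 5 FPKM. Mean levels over the 6 libraries ran from 2.06 to 137 FPKM, with a median of 20.4 against 6.70 for all 9818 tested genes. Mrpl12, a protein of the stalk that contacts translation factors, had the highest level at 137 FPKM. Mrpl52 followed at 100.4 FPKM, Mrps21 at 89.3 FPKM and Mrpl42 at 82.0 FPKM. Mrps18c and Mrps24 were the next highest of the small subunit, at 45.1 and 40.8 FPKM. The lowest levels were those of Mrps25 (2.06 FPKM), Mrpl3 (2.09 FPKM) and Mrpl19 (2.21 FPKM), whereas the second lowest of the small subunit, Mrps9, had 7.22 FPKM. Products of 1 complex that is built from single copies of most of its proteins were thus measured over a wide range of FPKM. A part of that range depends on the length used. For 8 members the length by which the authors divided was more than 2 times that of the principal GENCODE transcript, among them Mrpl14 (7525 against 645 bases), Mrpl4 (8356 against 1288 bases) and Mrpl3 (8707 against 3972 bases). A longer divisor lowers the FPKM of a gene by the same factor in all libraries, and for a low gene the pseudocount then shrinks the log2 fold change further.

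None of the 78 members passed the adjusted threshold of 0.05 between genotypes (limma on log2(FPKM + 1), smallest adjusted p among members 0.664). The background was 0% of the 9818 genes, with a smallest adjusted p of 0.452. With the replicate number as a block 4 genes (0.0407%) passed, and none of them is a member. At an unadjusted p under 0.05, 0 members were higher in ACSS2-HKO and 0 lower, against 6.09% of all tested genes higher and 1.5% lower. Log2 fold changes of the members, ACSS2-HKO minus ACSS2-flox, ran from -0.37 to 0.38. Of the 49 large subunit genes 18 had a positive and 31 a negative sign, with a median of -0.08. Of the 29 small subunit genes 17 had a positive and 12 a negative sign, with a median of 0.03. The median over all tested genes was 0.10, and 66.0% of them had a positive sign against 44.9% of the members. The large subunit median was negative under each scaling tried and positive with array weights, whereas the small subunit median changed sign with the scaling. The medians were -0.18 for the large and -0.07 for the small subunit with median ratio scaling, -0.12 and -0.04 with quantile normalization, -0.04 and 0.07 with TPM, and 0.09 and 0.14 with limma array weights. With median ratio scaling, 26.9% of the members had a positive sign, against 52.5% of all tested genes, whose median was then 0.01. The summed level of all members was 2399, 1736 and 2070 FPKM in the controls and 2129, 2186 and 1691 FPKM in ACSS2-HKO. Means were 2069 ± 332 and 2002 ± 271 FPKM (SD, n = 3 each), a difference smaller than the spread within either genotype. Of the 4 libraries that were not distant, the ACSS2-HKO sums were both above the control sums. As a share of all FPKM in a library the members held 0.413% ± 0.036 in ACSS2-flox and 0.414% ± 0.054 in ACSS2-HKO (SD, n = 3 each).

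**Figure D1:**
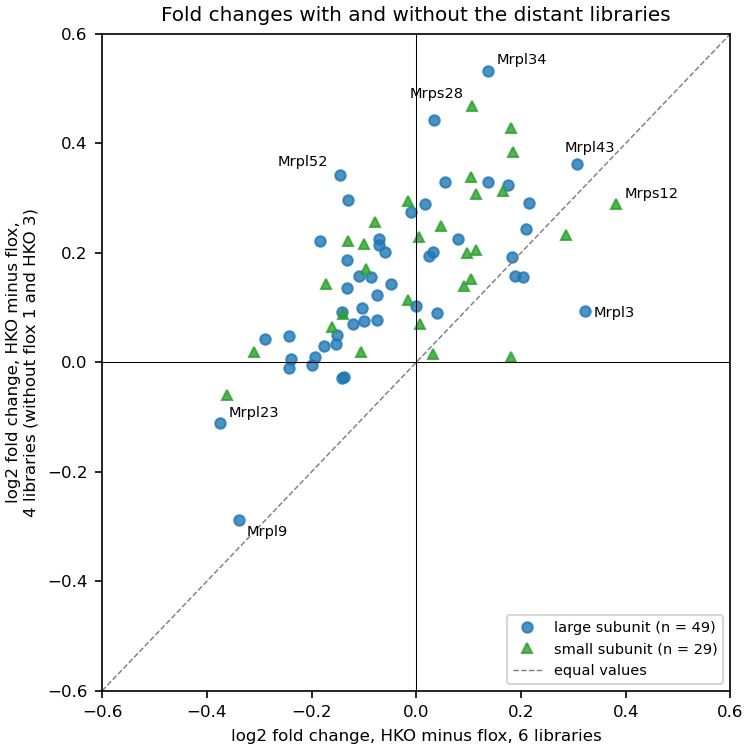
Log2 fold change (ACSS2-HKO minus ACSS2-flox, on log2(FPKM + 1)) of the 78 members with all 6 libraries (horizontal axis) and without ACSS2-flox replicate 1 and ACSS2-HKO replicate 3 (vertical axis). With 6 libraries 35 members have a positive sign, and with 4 libraries 71 do.

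In 3 members every ACSS2-HKO library lay above every ACSS2-flox library, and in 1 member every ACSS2-HKO library lay below. Over all tested genes 12.5% did not overlap in the higher and 2.94% in the lower direction, so the members' 3.85% and 1.28% were below the background. Mrps12, which lies at the decoding centre of the small subunit (chr7:28739641-28741821, minus strand, mm10), had 16.9, 20.4 and 23.5 FPKM in the controls and 26.2, 27.8 and 25.5 FPKM in ACSS2-HKO. Its means were 20.3 ± 3.33 and 26.5 ± 1.19 FPKM (SD, n = 3 each; exact permutation p = 0.1, two-sided, the smallest that 20 arrangements can give). The log2 fold change of Mrps12 was 0.38 ± 0.18 (SE, limma, adjusted p = 0.664), and it stayed between 0.26 and 0.49 when each library was left out in turn and was 0.29 without the distant libraries.

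Mrpl43, a large subunit protein (chr19:45005014-45006442, minus strand), had 22.6, 22.4 and 23.4 FPKM in the controls and 27.9, 31.7 and 26.1 FPKM in ACSS2-HKO. The ACSS2-flox libraries were close together, with means of 22.8 ± 0.556 and 28.6 ± 2.83 FPKM (SD, n = 3 each; exact permutation p = 0.1). Its log2 fold change was 0.31 ± 0.16 (SE, limma, adjusted p = 0.675), and 0.36 without the distant libraries. Mrpl19, a large subunit protein with a bacterial counterpart (chr6:81957826-81965949), had 2.19, 1.95 and 1.89 FPKM in the controls and 2.28, 2.40 and 2.57 FPKM in ACSS2-HKO. These low values also did not overlap (log2 fold change 0.18 ± 0.16, SE, limma, adjusted p = 0.793). The pseudocount of 1 shrinks the fold change of a gene at this level. The change of Mrpl19 also depended on the scaling, at 0.25 with TPM, 0.11 with median ratio scaling and 0.01 with quantile normalization. With either length correction it was 0.06 and the groups overlapped.

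Mrpl9, the counterpart of bacterial ribosomal protein L9 (chr3:94443154-94448708, plus strand), was the member that went the other way. It had 26.0, 26.2 and 31.9 FPKM in the controls and 23.5, 23.5 and 18.9 FPKM in ACSS2-HKO. Its means were 28.0 ± 3.34 and 22.0 ± 2.68 FPKM (SD, n = 3 each; exact permutation p = 0.1). The log2 fold change of Mrpl9 was -0.34 ± 0.18 (SE, limma, adjusted p = 0.675), between -0.39 and -0.24 when each library was left out, and -0.29 without ACSS2-flox replicate 1 and ACSS2-HKO replicate 3. It was the only member whose groups did not overlap in the lower direction with 6 libraries. With 4 libraries it was again the only one. For Mrpl9 itself that follows from the 6-library result, as the 4 libraries are among the 6.

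**Figure D2:**
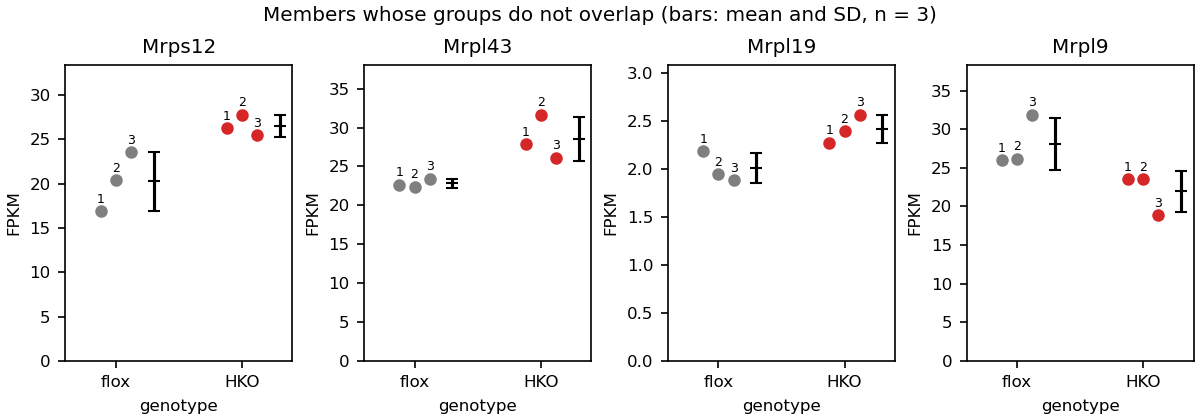
FPKM of Mrps12, Mrpl43, Mrpl19 and Mrpl9 in each library, numbered by replicate, with bars for the mean and SD of each genotype (n = 3). Every ACSS2-HKO library is above every ACSS2-flox library for Mrps12, Mrpl43 and Mrpl19 and below them for Mrpl9.

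The other 7 members of smallest p with a negative sign all had their highest value in ACSS2-flox replicate 1, and their changes were smaller without the distant libraries. Mrpl23, whose bacterial counterpart lies at the exit of the peptide tunnel, had 21.7, 11.6 and 15.7 FPKM in the controls and 13.7, 11.3 and 11.2 FPKM in ACSS2-HKO. Its log2 fold change was -0.37 with 6 libraries and -0.11 without ACSS2-flox replicate 1 and ACSS2-HKO replicate 3. Mrps33, a small subunit protein, had 27.3, 15.6 and 18.3 FPKM in the controls and 15.7, 16.7 and 13.5 FPKM in ACSS2-HKO, a log2 fold change of -0.36 that became -0.06. The log2 fold changes of Mrps35, Mrpl27, Mrpl47, Mrpl48 and Mrpl39 likewise went from -0.31, -0.29, -0.24, -0.24 and -0.19 to 0.02, 0.04, -0.01, 0.01 and 0.01. Mrpl3, whose bacterial counterpart reaches the peptidyl transferase centre, was low in that library instead. It had 0.927, 2.07 and 2.37 FPKM in the controls and 2.51, 2.37 and 2.31 FPKM in ACSS2-HKO, and its log2 fold change was 0.32 with 6 libraries and 0.09 with 4. Among the other members of smallest p with a positive sign, the changes were 0.29 for Mrps23, 0.22 for Mrpl4, 0.21 for Mrpl16 and 0.20 for Mrpl44, and with 4 libraries 0.23, 0.29, 0.24 and 0.16.

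The 2 libraries that stood apart placed the members differently from other genes. ACSS2-flox replicate 1 held the highest of the 6 values for 44 members (56.4%), against 15.7% of all tested genes, and the lowest for 8 members (10.3%), against 52.9%. ACSS2-HKO replicate 3 lay below both other ACSS2-HKO libraries for 72 members (92.3%), against 42.9% of all tested genes. ACSS2-flox replicate 2 held the lowest value for 26 members (33.3%), against 13.9%. Relative to the mean of ACSS2-flox, the median over large subunit genes was 0.22, -0.20 and 0.01 on the log2 scale in ACSS2-flox replicates 1 to 3 and 0.04, 0.09 and -0.27 in ACSS2-HKO replicates 1 to 3. The median over small subunit genes was 0.24, -0.22 and 0.02 in the controls and 0.15, 0.13 and -0.17 in ACSS2-HKO. In both subunits the median was highest in ACSS2-flox replicate 1, and the lowest medians were those of ACSS2-flox replicate 2 and ACSS2-HKO replicate 3. Over all tested genes the medians were -0.18, 0.05 and 0.12 in the controls and 0.11, 0.12 and 0.06 in ACSS2-HKO.

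**Figure D3:**
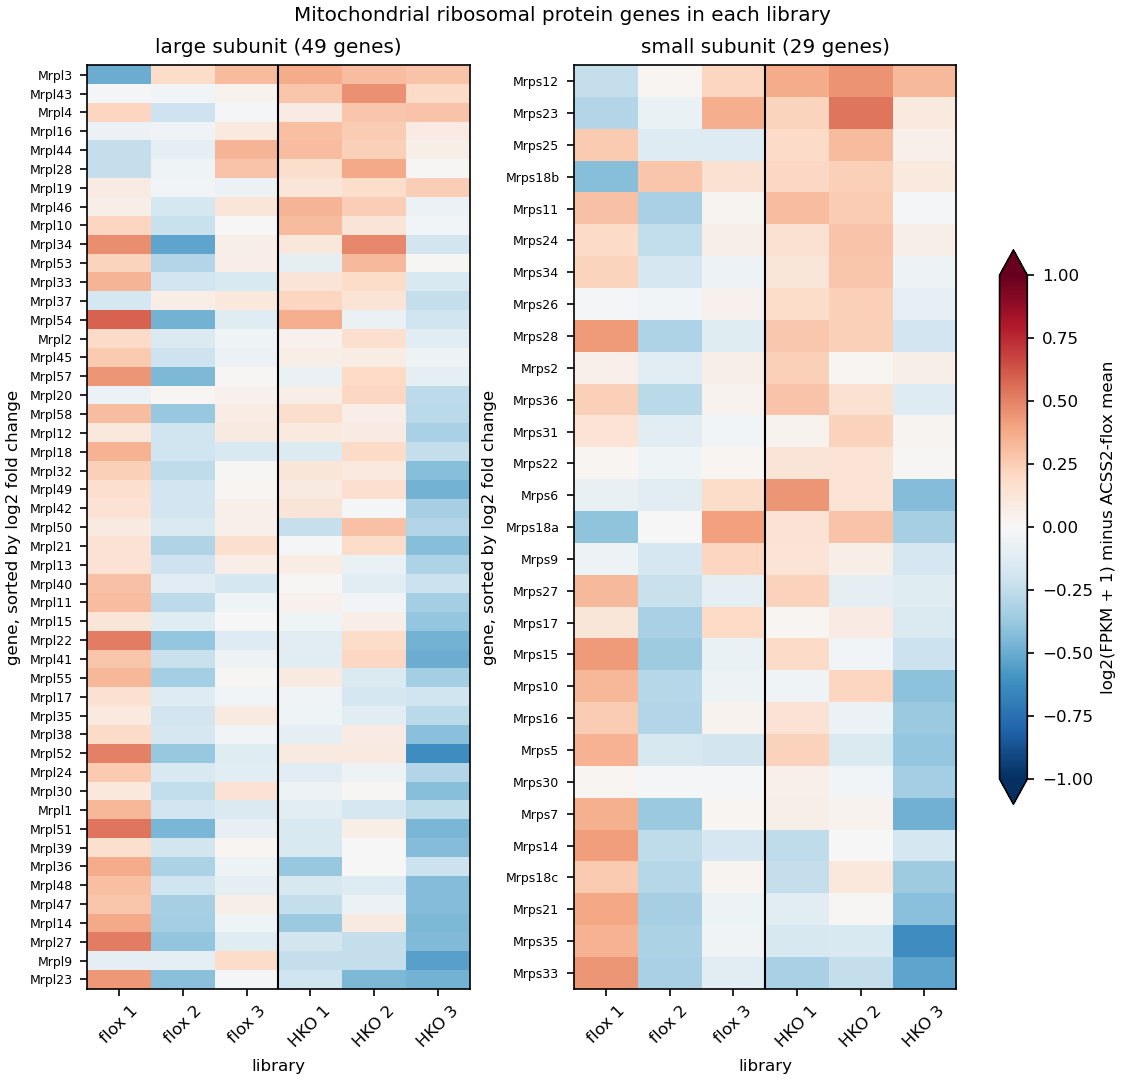
Deviation of each of the 78 members in each of the 6 libraries from its mean in ACSS2-flox, on log2(FPKM + 1). Most members are high in ACSS2-flox replicate 1, which holds the highest value for 44 of them, and low in ACSS2-HKO replicate 3, which lies below both other ACSS2-HKO libraries for 72.

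Summed levels of cell type markers also set these libraries apart, though not both of them for every list. Hepatocyte markers summed to 92006, 63641 and 60231 FPKM in the controls and 60439, 57547 and 53414 FPKM in ACSS2-HKO (11 of 12 listed genes present), highest in ACSS2-flox replicate 1 and lowest in ACSS2-HKO replicate 3. Kupffer cell and macrophage markers summed to 377 to 591 FPKM in the controls and 700 to 1734 FPKM in ACSS2-HKO, with the highest sum in ACSS2-HKO replicate 3 (12 of 12 present, 12 with a positive sign). Neutrophil markers summed to 8.42 to 18.1 FPKM in the controls and 39.9 to 363 FPKM in ACSS2-HKO, again highest in ACSS2-HKO replicate 3. Of the 12 neutrophil markers, Camp, Elane, Ly6g and Mpo were listed at 0 in some libraries. Endothelial markers summed to 36.4 FPKM in ACSS2-flox replicate 1 and to 119 to 175 FPKM in the other 5 libraries. Lymphocyte and cholangiocyte markers were highest in ACSS2-HKO replicate 3, at 15.3 and 71.7 FPKM. Stellate cell and erythroid markers were lowest in ACSS2-flox replicate 1, at 109 and 396 FPKM. The erythroid sum was nearly as low in ACSS2-HKO replicates 2 and 1, at 399 and 428 FPKM, so it hardly set that library apart. The highest stellate cell and erythroid sums were in ACSS2-HKO replicate 1 (205 FPKM) and ACSS2-flox replicate 3 (1130 FPKM), neither a distant library. In whole liver, fewer cells of a type and less RNA per cell cannot be told apart, and the part of these cell types in the members' values was not tested.

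Without ACSS2-flox replicate 1 and ACSS2-HKO replicate 3, still no member passed adjustment (limma over 9846 genes, smallest adjusted p among members 0.480, background 0%). The signs, however, turned: 71 of the 78 members were positive, 43 of 49 in the large and 28 of 29 in the small subunit, against 54.9% of all tested genes. The medians were 0.15 for the large and 0.20 for the small subunit, against 0.03 for all tested genes, and 36 members changed sign from the 6-library comparison. With median ratio scaling 65 members were positive (83.3%), against 50.7% of all tested genes. Groups did not overlap in the higher direction for 36 members (46.2%), 21 of the large and 15 of the small subunit, against 23.1% of all tested genes. In the lower direction this held for Mrpl9 alone, against 17.8% of all tested genes. At an unadjusted p under 0.05, 3 members were higher (3.85%, against 5.26% of all tested genes) and 0 lower (against 3.82%). The signs and medians leaned on ACSS2-flox replicate 2. Without it as well, which leaves ACSS2-flox replicate 3 as the only control library, 55 members were positive (70.5%, against 48.6% of all tested genes). The medians then were 0.032 for the large and 0.11 for the small subunit, against -0.01 for all tested genes.

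**Figure D4:**
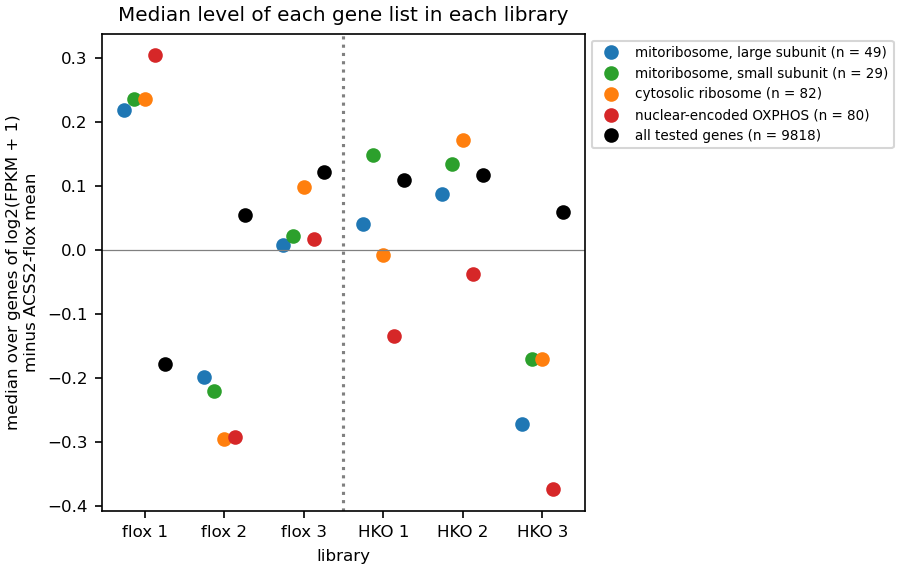
Median over each gene list of the deviation from the ACSS2-flox mean, on log2(FPKM + 1), in each of the 6 libraries. Points of 1 library are set side by side so that they do not hide each other. Large and small subunit genes lie at 0.22 and 0.24 in ACSS2-flox replicate 1 and at -0.27 and -0.17 in ACSS2-HKO replicate 3, whereas the median of all tested genes lies at -0.18 and 0.06.

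The 3 members of smallest p with 4 libraries were all of the small subunit, and are named here after their values were seen, apart from Mrps25. Mrps28 had 36.0, 21.3 and 24.4 FPKM in the controls and 32.2, 31.6 and 23.1 FPKM in ACSS2-HKO. Its log2 fold change was 0.11 with 6 libraries and 0.47 ± 0.15 with 4 (SE, limma, adjusted p = 0.480). Mrps11, whose bacterial counterpart lies on the platform of the small subunit, had 15.4, 9.74 and 12.7 FPKM in the controls and 15.6, 15.0 and 12.2 FPKM in ACSS2-HKO, with log2 fold changes of 0.18 and 0.43. Mrps25, the member of lowest level, had 2.41, 1.60 and 1.61 FPKM in the controls and 2.26, 2.55 and 1.95 FPKM in ACSS2-HKO, with 0.19 and 0.38. In all 3 genes ACSS2-HKO replicates 1 and 2 lay above ACSS2-flox replicates 2 and 3, which follows largely from their choice by p in that comparison. ACSS2-flox replicate 1 lay within or above the range of ACSS2-HKO. The members whose sign change was largest were Mrpl52, Mrpl22, Mrpl51 and Mrps7. Mrpl52 had 145, 78.5 and 93.9 FPKM in the controls and 109, 109 and 66.4 FPKM in ACSS2-HKO, and its log2 fold change went from -0.14 to 0.34. Those of Mrpl22, Mrpl51 and Mrps7 went from -0.13, -0.18 and -0.13 to 0.30, 0.22 and 0.22.

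Members with roles of their own showed no call either. Mrpl12, which also binds the mitochondrial RNA polymerase, had 150, 121 and 148 FPKM in the controls and 148, 147 and 111 FPKM in ACSS2-HKO, a log2 fold change of -0.05 ± 0.20 (SE), and 0.14 without the distant libraries. Mrpl58, a peptidyl-tRNA hydrolase that frees stalled ribosomes, had -0.01 and 0.27 in these comparisons. Mrpl42, of the large subunit, had -0.08 and 0.12. Mrps36, known as a subunit of the oxoglutarate dehydrogenase complex rather than of the ribosome, had 0.10 and 0.34. Mrps18a, Mrps18b and Mrps18c are 3 relatives of 1 bacterial protein. Mrps18a had 26.2, 34.7 and 46.6 FPKM in the controls and 38.8, 42.7 and 27.4 FPKM in ACSS2-HKO, and Mrps18b had 11.6, 19.6 and 17.8 FPKM and 18.6, 19.0 and 17.1 FPKM. Both were lowest in ACSS2-flox replicate 1, unlike most members, whereas Mrps18c was highest there at 56.7 FPKM. The log2 fold changes of the 3 were 0.03, 0.18 and -0.16, and 0.02, 0.01 and 0.07 without the distant libraries. Mrps18a and Mrps30 sit in the large subunit despite their names, and with them counted there the medians were -0.08 for the large and 0.05 for the small subunit.

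The members are short genes. Their principal transcripts had a median length of 1302 bases, against 2827 bases for the 9642 tested genes with a transcript length. Across the 78 members, transcript length had a Spearman correlation of -0.21 with the deviation of ACSS2-flox replicate 1 from the other ACSS2-flox libraries and of 0.21 with that of ACSS2-HKO replicate 3 from the other ACSS2-HKO libraries. These are descriptions over genes that share the same libraries. After a loess correction of each library for transcript length, chosen after the data were seen, 29 members were positive with 6 libraries (37.2%, against 50.6% of all tested genes) and 55 with 4 (70.5%, against 49.5%). Before this correction, transcript length had a Spearman correlation with the members' log2 fold change of -0.04 with 6 libraries and -0.25 with 4. After it the value with 6 libraries was -0.38, so among the members the corrected changes varied more with length than the uncorrected ones. The corrected 6-library counts of members are to be read with that limit. The value with 4 libraries after the correction is not given here. The part of gene length in the members' values was not tested further. With 4 libraries the medians then were 0.048 for the large and 0.12 for the small subunit, and groups did not overlap in the higher direction for 24 members (30.8%), against 20.2% of all tested genes. In the lower direction this held for 7 members, against 20.5%. With 6 libraries and this correction, 7 members were higher without overlap and 6 lower, against 8.41% and 7.85% of all tested genes.

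The other protein-coding parts of mitochondrial translation were taken from lists written from general knowledge. None of their genes passed adjustment. Of the 5 mitoribosomal proteins with other names, Ptcd3, Dap3, Gadd45gip1, Chchd1 and Aurkaip1 had log2 fold changes of 0.19, 0.04, 0.00, -0.18 and -0.19, and 0.16, -0.01, 0.34, -0.04 and 0.10 without the distant libraries. Of 27 tested factors of ribosome assembly and ribosomal RNA modification, 2 (7.41%) were higher at an unadjusted p under 0.05 and 0 lower, near the 6.09% higher of all tested genes. The median of the list was -0.04, against 0.10 for all tested genes. Trub2, a pseudouridine synthase, had 0.896, 1.49 and 1.89 FPKM in the controls and 2.50, 2.55 and 2.26 FPKM in ACSS2-HKO (log2 fold change 0.52, limma, adjusted p = 0.637). Mrm2, a methyltransferase of mitochondrial ribosomal RNA, had 3.31, 3.28 and 2.31 FPKM and 5.41, 4.09 and 3.91 FPKM (0.46, adjusted p = 0.649). For Trub2 and Mrm2 every ACSS2-HKO library lay above every ACSS2-flox library, as in 7.41% of the list against 12.5% of all tested genes. Without the distant libraries their changes were 0.39 and 0.60.

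Of 18 translation factors and activators, 2 (11.1%) were higher at an unadjusted p under 0.05, against 6.09% of all tested genes, and 0 lower. The median of the list was 0.02, against 0.10 for all tested genes. Taco1, the translational activator of cytochrome c oxidase subunit I, had 3.83, 6.14 and 7.58 FPKM in the controls and 9.29, 10.1 and 9.92 FPKM in ACSS2-HKO, a change of 0.69 on the log2 scale (limma, adjusted p = 0.637). Tsfm, a translation elongation factor, had 6.69, 4.44 and 7.25 FPKM and 7.55, 10.8 and 9.57 FPKM, a change of 0.54 (adjusted p = 0.649). For Taco1 and Tsfm, too, the groups did not overlap, which is 11.1% of the list against 12.5% of all tested genes. Without the distant libraries the changes were 0.45 for Taco1 and 0.59 for Tsfm. Of 19 tested mitochondrial aminoacyl-tRNA synthetases 0 passed that threshold. The smallest p belonged to Ears2 and Rars2, for glutamyl- and arginyl-tRNA, each with a log2 fold change of 0.35. Groups did not overlap in the higher direction for 4 of the 19 (21.1%), Ears2 and Rars2 among them, against 12.5% of all tested genes. Of 21 genes of mitochondrial DNA and RNA upkeep 0 passed, with -0.30 for the transcription factor Tfb2m and 0.24 for Ptcd2. Of 7 tested nuclear regulators 0 passed, with -0.25 for Yy1 and 0.12 for Esrra. Without the distant libraries the median of the regulators went from -0.02 to -0.24 and Yy1 to -0.41 without overlap between groups (limma, adjusted p = 0.544). Groups did not overlap in the lower direction for 3 of the 7 (42.9%), Yy1 among them, against 17.8% of all tested genes. The lowest log2 fold change of the 7 was -1.37. The change of Yy1 was the only 1 of the 7 at an unadjusted p under 0.05, against 3.82% of all tested genes lower. The medians of the assembly, translation factor, synthetase and DNA and RNA lists were 0.04, 0.12, 0.07 and 0.06 in that comparison.

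The proteins of the cytosolic ribosome and the nuclear subunits of oxidative phosphorylation were set beside the members as the most similar gene groups. Cytosolic ribosomal protein genes (82 tested) had medians of 0.24, -0.30 and 0.10 in the controls and -0.01, 0.17 and -0.17 in ACSS2-HKO relative to the ACSS2-flox mean. Their median log2 fold change was 0.00, with 41 positive and 41 negative. Oxidative phosphorylation genes (80 tested) had medians of 0.30, -0.29 and 0.02 in the controls and -0.13, -0.04 and -0.37 in ACSS2-HKO. Their median log2 fold change was -0.18, with 9 positive and 71 negative. All of these groups were high in ACSS2-flox replicate 1 and low in ACSS2-flox replicate 2 and ACSS2-HKO replicate 3, as the mitochondrial ribosomal proteins were. Without ACSS2-flox replicate 1 and ACSS2-HKO replicate 3 the medians were 0.20 for the cytosolic ribosome and 0.05 for oxidative phosphorylation, beside 0.16 for the members. In that comparison 82 of 83 cytosolic ribosomal protein genes (98.8%) and 53 of 80 oxidative phosphorylation genes (66.3%) were positive, beside 71 of the 78 members. Without a length correction, the turn of signs was thus not particular to the members. With the transcript length correction, positive cytosolic ribosomal protein genes went from 49.4% with 6 libraries to 75.3% with 4. Positive oxidative phosphorylation genes went from 10.7% to 18.7% (14 of 75), so most stayed negative. The members went from 37.2% to 70.5%. Without that correction and with 4 libraries, groups did not overlap in the higher direction for 16.9% of the cytosolic ribosomal protein genes. This held for 7.5% of the oxidative phosphorylation genes, beside 46.2% of the members and 23.1% of all tested genes.

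A genomic arrangement that the rule did not use was more frequent among the members than among tested genes. A gene on the opposite strand started within 1000 bases, head to head, for 26 of the 69 members with a RefSeq start (37.7%), against 12.2% of all 27025 genes and 20.03% of the tested genes. Mrps11 and Mrpl46 start 42 bases apart, across the interval printed above, and both are members, each counted among the 26. Mrpl46 had 15.9, 13.3 and 16.6 FPKM in the controls and 19.5, 18.2 and 14.5 FPKM in ACSS2-HKO, and the log2 fold changes of the pair were 0.18 for Mrps11 and 0.17 for Mrpl46. Mrps12 and Sars2, the mitochondrial seryl-tRNA synthetase, start 147 bases apart by the starts used for the promoter windows. The gene span of Sars2 begins nearer, at chr7:28741957, and bounds the 135 bases printed for Mrps12. Sars2 had 3.15, 3.24 and 3.28 FPKM in the controls and 3.35, 2.92 and 3.32 FPKM in ACSS2-HKO, a log2 fold change of -0.01 beside the 0.38 of Mrps12. Mrpl43 and Twnk, the mitochondrial DNA helicase, start 116 bases apart and had 0.31 and 0.07. The sources used here do not say whether fragments were counted by strand, so fragments of overlapping neighbours cannot be told apart.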

How the data were processed

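Mouse liver RNA was sequenced in 6 libraries (3 ACSS2-flox, 3 ACSS2-HKO) after library preparation with a VAHTS V6 RNA-seq kit, per the labels. The authors deposited 1 FPKM value per gene and library for 16135 genes. The submitters' processing notes list the build mm10 and DESeq2 with no role for either. Aligner, counter and annotation: not given in the sources used here. Fragment counts and library totals of 33717125 to 39474527 were recovered from the deposited FPKM values as whole multiples of what 1 fragment is worth.

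The 9818 genes averaging 1 FPKM or more were tested on log2(FPKM + 1) with limma 3.58.1 in R 4.3.3 (lmFit, eBayes with a trend, two-sided, Benjamini-Hochberg over all tested genes, threshold 0.05). A positive log2 fold change means a higher level in ACSS2-HKO. Single members also had an exact permutation test over 20 arrangements, whose smallest p is 0.1. Alternatives were no filter and a filter at 5 FPKM, pseudocounts of 0.1 and 5, TPM, median ratio and quantile scaling, no variance trend, array weights, a loess correction for gene length (span 0.5), voom on the recovered fragments, a block for the replicate number, and leaving out each library or both distant ones. The correction with the GENCODE transcript length (M21, principal transcript) and leaving out each library of the 4-library comparison were chosen after the data were seen.

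The members, gene lists and tests were chosen with earlier results of these data known. Genes named in the text are the 8 members of smallest p in each direction, the 3 of highest and 2 of lowest level in each subunit, 9 with known roles, the 4 with the largest change of sign, the 2 of smallest p of each pathway list, the 5 mitoribosomal proteins with other names, and Acss2. Mrps28, Mrps11, Mrpl46, Mrpl14, Sars2 and Twnk fall outside that rule and were chosen after their values were seen. The test and the recovery of fragments were tested on simulated data.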

Additional observations from a re-analysis of the deposited data

How the results depend on the processing

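No alternative put a member past the adjusted threshold. Over all genes, 4 passed with the replicate number as a block (0 members) and 0 to 3 with 1 library left out, 3 of them without ACSS2-HKO replicate 2 (0 members). Deviations of same-numbered libraries had correlations of 0.01, 0.00 and -0.06 over tested genes, within the -0.17 to 0.15 of differently numbered libraries. Whether the numbers pair libraries is not labelled, and these correlations over 3 libraries per genotype cannot decide it. At an unadjusted p under 0.05, members higher numbered 2 with no filter, 3 with array weights, 0 to 1 with 1 library left out (1 without ACSS2-flox replicate 3), 3 without both distant libraries and with median ratio scaling added, and 1 with either length correction added. Members lower numbered 1 with median ratio scaling, quantile normalization, either length correction, or either length correction without both distant libraries, and 0 to 1 with 1 library left out (1 without ACSS2-flox replicate 2). Of all tested genes, 6.09% were higher and 1.5% lower at that threshold in the main 6-library fit. Without both distant libraries the shares were 5.26% and 3.82%. For the other alternatives these shares are not given here, so the counts of members under them are not read as a result.

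Members higher without overlap numbered 6 with TPM, 1 with median ratio scaling, 6 with the gene length correction, 7 with the transcript length correction, and 3 to 9 with 1 library left out (9 without ACSS2-flox replicate 1 or ACSS2-HKO replicate 3, 8 without ACSS2-flox replicate 3). The shares of all tested genes were 12.4%, 8.08%, 8.13% and 8.41%, and 16.5% to 21.9% with 1 library left out. Without both distant libraries they numbered 36, and 31, 22 and 24 with median ratio scaling, gene length and transcript length correction, against 23.1%, 20.6%, 20.1% and 20.2% of all tested genes. Members lower without overlap numbered 0 with TPM, 2 with median ratio scaling, and 5 and 6 with the gene and transcript length corrections. The shares of all tested genes in that direction were 2.33%, 6.13%, 7.53% and 7.85%. With either correction without both distant libraries 7 members were lower, against 20.5% of all tested genes. With 1 library left out 1 to 12 members were lower, against 3.50% to 14.5%. The 12 (15.4%) were found without ACSS2-flox replicate 2, against 7.08% of all tested genes. Without ACSS2-HKO replicates 1 and 2 the counts were 4 and 3, against 6.04% and 6.73%.

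The large subunit median ran from -0.20 to 0.05 and the small subunit median from -0.05 to 0.13 with 1 library left out. Without both distant libraries the large subunit median was 0.15, and 0.13 with median ratio scaling and 0.048 with the transcript length correction. The 4-library comparison without each of its libraries in turn leaves 1 library in a genotype, so groups fail to overlap more easily, for 32.4% to 43.8% of all tested genes in the higher direction, and the lone library is assumed to vary like the others. It gave 37 to 70 members higher without overlap (70 without ACSS2-flox replicate 3, against 43.8%), 55 to 76 positive members, and medians of 0.032 to 0.25 (0.032 without ACSS2-flox replicate 2) and 0.11 to 0.29. The cause of these shifts was not tested. How far fragment depth or other variation between libraries limits the precision was not tested.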
